A study of Mus musculus with 4 samples.

Results

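The difference of LDL responses is the LDL response of L2AKO vascular smooth muscle cells minus that of wild-type (WT) cells. It is positive where LDL left a transcript higher, or lowered it less, in L2AKO than in WT. It was taken gene by gene from all 4 arrays of the series and could be measured for 12492 of the 21367 genes with a named probe, those above background on every array. Each response is a log2 difference of a cell line with LDL and without it.

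The cells were aortic smooth muscle cells of mice, cultured from 5 aortas of WT and of LAMP-2A knockout mice and used between passages 12 and 16. There were 4 groups, WT control, WT LDL, L2AKO control and L2AKO LDL. All were incubated for 24 h in culture medium containing 5% lipoprotein-deficient serum. The LDL groups also received LDL at 150 µg/ml cholesterol and bovine lipoprotein lipase at 0.1 U/ml, an enzyme that promotes uptake of LDL. The sources used here leave unstated whether the control groups received the lipase. Each group was 1 array of RNA pooled from a triplicate, so n = 1 per group. No test between groups was possible, no value carries a replicate error, and each genotype was represented by 1 line of cells. The sources used here do not state the age of the mice.

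LAMP-2A is the lysosomal membrane receptor of chaperone-mediated autophagy, a route by which the chaperone Hspa8 brings single cytosolic proteins to the lysosome. LDL taken up by a cell releases cholesterol in the lysosome, and that cholesterol keeps the transcription factor SREBP-2 inactive, which lowers the transcripts of cholesterol synthesis. Interferons act through the kinases Jak1 and Tyk2 and factors such as Stat2 and Irf9, which bind an element of repeated GAAA in the promoters of antiviral genes.

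Of 123 interferon list genes measured, 31 were at least 2-fold lower with LDL in WT. All 31 were lowered by less in L2AKO, though for Oasl1 the responses were nearly alike (-1.32 in WT and -1.19 in L2AKO). Of the sterol list genes, 25 were at least 2-fold lower in WT, and 23 of these were so in L2AKO. A further 52 genes, most of them on no interferon list, were high on the L2AKO LDL array alone.

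Promoter stretches of interferon-stimulated genes are shown first because these 5 genes, described below, hold this element and differed in response. Most interferon list members searched did not hold it in the window used. Each is 60 bases of the RefSeq GRCm38.p6 promoter, 5′ to 3′ along the gene, ending before the annotated start. Capitals mark the match nearest the start to the element GAAANNGAAA, where N is any base, or its reverse complement, searched on both strands. Other matches stayed in lower case, and the stretches of Isg15, Ifit1, Gbp3 and Apol9a hold such matches.

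Isg15, chr4:156200850-156200909, minus strand: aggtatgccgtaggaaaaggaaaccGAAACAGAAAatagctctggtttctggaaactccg

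Ifit1, chr19:34640779-34640838, plus strand: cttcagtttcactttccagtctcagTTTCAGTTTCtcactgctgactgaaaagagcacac

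Gbp3, chr3:142559980-142560039, plus strand: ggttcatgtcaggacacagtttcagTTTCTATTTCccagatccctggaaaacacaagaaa

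Irgm2, chr11:58214888-58214947, plus strand: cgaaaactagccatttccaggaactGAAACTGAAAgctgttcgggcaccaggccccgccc

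Apol9a, chr15:77411099-77411158, minus strand: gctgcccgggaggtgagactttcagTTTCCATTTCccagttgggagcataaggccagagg

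The capitalised match begins 66 bases before the start of Isg15, 85 before that of Ifit1, 39 before that of Gbp3, 64 before that of Irgm2 and 53 before that of Apol9a. In windows from 250 bases before to 50 after the start, the element was found in 3.99% of 27025 promoters in the table and in 3.53% of the 9969 measured genes with a promoter there. Of the interferon list members measured, 37 of 97 with a promoter held it (38.1%). Among members at least 1.5-fold higher in the difference it was in 11 of 26 (42.3%), and among the other members in 26 of 71 (36.6%). Both shares lay above that of all measured genes, and no test was made between them. A match of letters is a description and not a binding site.

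All values below are log2 signal minus the array's 75th percentile, called the level, or differences of levels. The 75th percentile of the signal ran from 318.8 to 433.8 over the arrays, 47.2% to 52.0% of probes were well above background, and no spot was saturated. WT control, WT LDL and L2AKO control lay on 1 slide and L2AKO LDL on another. The L2AKO response therefore compares slides as well as treatments, and there slide and group cannot be told apart. Of 8 spike-in controls measured, 7 had an L2AKO LDL level outside the range of their other levels. In the L2AKO response, which ran from -0.99 to 0.58, 5 of the 8 reached 1.5-fold and 0 reached 2-fold. In the WT response 0 reached 1.5-fold. The difference of responses of the 8 ran from -0.65 to 0.79, with 2 at 1.5-fold or more and 0 at 2-fold. For 245 measured probes printed 10 times, spots within an array gave a median SD of 0.10 for a difference of responses, which covers technical spread within an array only. Of the smooth muscle markers, Acta2 was high on every array (level 6.55 to 7.39), 5 of 8 markers were measured, and Myh11, Lmod1 and Des stayed below the detection limit throughout. The targeted gene had 2 Lamp2 probes, with differences of responses of 0.05 and -0.33, and the sources used here do not say which probe lies in the deleted part. Hspa8 had 3 probes at -0.08, 0.44 and 0.76.

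Across the 12492 genes the difference of responses had a median of -0.03 and an SD of 0.37, and 91.2% of genes lay within 1.5-fold. At least 2-fold higher were 174 genes, 1.39% of those measured, and at least 2-fold lower were 90, or 0.72%. At 1.5-fold the counts were 596 higher (4.77%) and 498 lower (3.99%), and these shares are the background for the gene lists below. The split of the 2-fold calls moved with the processing. Higher genes made up 65.9% of them, against 79.1% with arrays scaled to their medians, 85.1% after normexp background correction, 84.5% in the authors' deposited values and 83.3% without the dimmest 25% of genes. The share was 53.2% when detection on any 1 array was enough and 41.7% without a filter. Just inside the 2-fold line lay Rps3 at 1.00 and Chic1 at -1.02, and just outside it Syt6 at 0.992 and Mir100hg at -0.987.

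**Figure D1:**
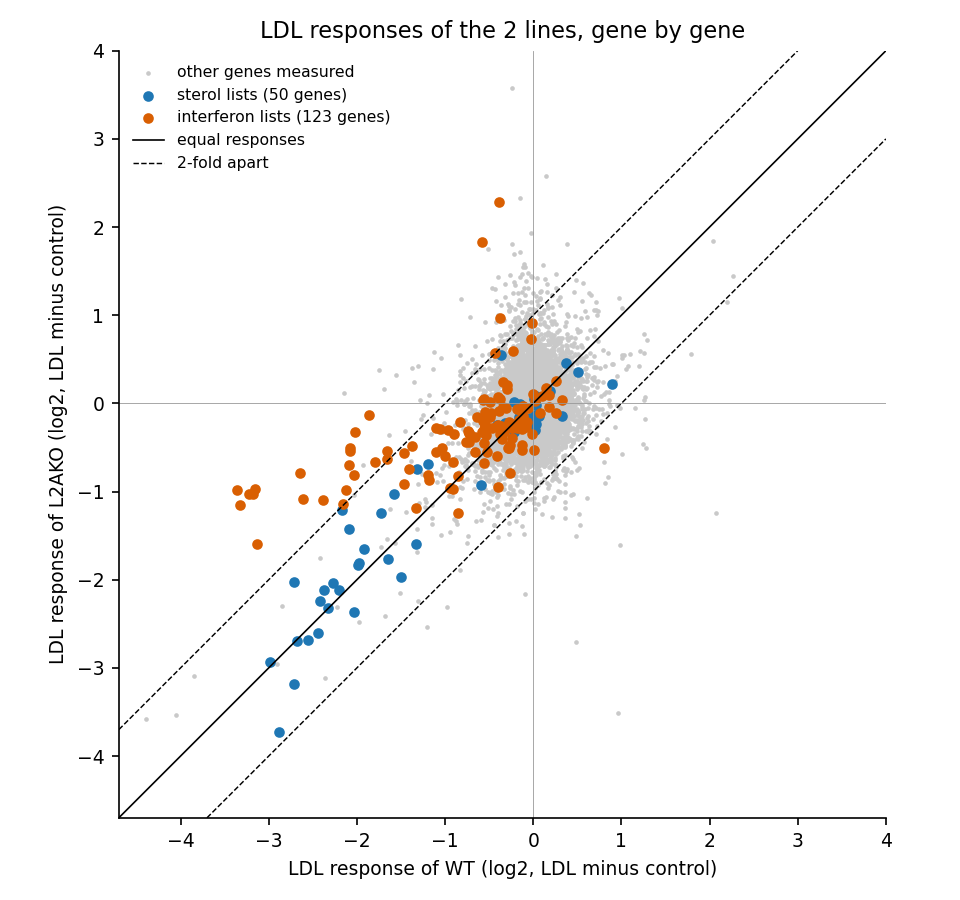
LDL response of L2AKO (vertical axis, log2, LDL minus control) against that of WT (horizontal axis, log2) for each of 12492 genes, with the 123 measured genes of the interferon lists in orange and the 50 of the sterol lists in blue. The solid line marks equal responses and the dashed lines a 2-fold difference. Orange points at the left lie above the upper dashed line, and blue points at the left follow the solid line.

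Interferon-stimulated genes. Of 168 genes on 6 interferon lists, 123 were measured on all arrays. In the difference of responses 36 of them were at least 1.5-fold higher and 1 was lower, 24 were at least 2-fold higher and 1 lower, and the median was 0.29. Over all genes measured, 4.77% were that much higher and the median was -0.03. These counts have no test, and the lists were drawn up with earlier results of these data known.

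Isg15, a ubiquitin-like protein attached to other proteins in antiviral defence, stood at 3.21 and 3.06 on the control arrays of WT and L2AKO, at -0.01 on WT LDL and at 2.04 on L2AKO LDL. It differed little between the lines without LDL, and WT LDL was the lowest array. LDL changed it by -3.22 in WT and by -1.02 in L2AKO, a difference of 2.20.

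Usp18, the protease that removes Isg15 and dampens interferon signalling, was at 0.87, -2.49, 0.64 and -0.35 on WT control, WT LDL, L2AKO control and L2AKO LDL, the order kept from here on. Rtp4, a chaperone of membrane receptors, was at 2.75, -0.58, 2.92 and 1.77. In each the control levels lay close together and the WT LDL array lay lowest, giving differences of 2.37 for Usp18 and 2.17 for Rtp4. Ifit1, which binds viral RNA that lacks host cap methylation, read 1.22, -1.39, 1.50 and 0.42, with a difference of 1.53. Xaf1, a partner of an apoptosis inhibitor, read 2.40, 0.32, 2.21 and 1.67. Its difference was likewise 1.53, and only the WT response (-2.08) passed 1.5-fold, with -0.54 in L2AKO.

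The apolipoprotein L genes Apol9a and Apol9b showed the pattern in its plainest form. Apol9a read 2.78, 0.91, 2.93 and 2.79. WT LDL alone was lower and the other 3 arrays lay close together, with a difference of 1.73, and a second probe of Apol9a gave 2.27. Of the 24 interferon list genes at least 2-fold higher, only 2 had another measured probe, and 1 of these probes was 1.5-fold higher. The other belonged to Herc6, which was called at 1.00 and whose second probe gave -0.16. Apol9b read 2.92, 0.90, 2.88 and 2.56. The 60-base promoter stretch shown for Apol9a is the same in Apol9b, and signal of these near-identical genes may not be separable by their probes. Among effectors, 18 of 53 measured were at least 1.5-fold higher, 1 was lower, and the median was 0.32. The lower member was Ifit1bl1, a relative of Ifit1, at -2.62, -1.81, -2.34 and -2.84, which was higher with LDL in WT and lower in L2AKO (difference -1.30).

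The 2-5-oligoadenylate synthetases, which sense double-stranded RNA and switch on RNase L, had a median of 1.01, with 4 of 8 measured members at least 1.5-fold higher and none lower. The median ran from 0.35 with no filter on dim probes to 1.87 without the dimmest 25% of genes. Oasl2 was at 1.51, -1.67, 1.97 and 0.94 (difference 2.16). Oas1a was at 0.48, -2.67, 3.31 and 2.34 (difference 2.18), so its L2AKO levels lay above both WT levels with and without LDL. Oas1f followed Oas1a, at -0.55, -2.63, 2.15 and 1.65 (difference 1.58). Oas1d, in contrast, was dim on 3 arrays at -3.11, -3.50 and -3.46 and read -1.17 on L2AKO LDL, so its difference of 2.67 came from an increase in L2AKO. The Oas1 genes are close copies and their probes may share signal. Oas2 was not well above background in WT LDL, which leaves a difference of 1.16 or more, while Oasl1 was lowered alike in both lines (-1.32 and -1.19).

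Of the interferon-inducible GTPases, which act on the membranes of vacuoles holding pathogens, 6 of 12 measured were at least 1.5-fold higher, none lower, and the median was 0.59. Gbp3 was at 0.36, -2.03, 1.07 and -0.03 (difference 1.29). Irgm2 was at 2.61, 0.96, 3.26 and 2.72 (difference 1.12), and Igtp at 1.70, 0.05, 2.60 and 1.97 (difference 1.03). In each the WT LDL array was the lowest of the 4. Iigp1, at -1.01, -1.38, -1.07 and -0.10 (difference 1.34), was instead highest on L2AKO LDL.

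Among 17 nucleic acid sensors measured, 4 were at least 1.5-fold higher and none lower, and the median was 0.05. Dhx58, a regulator of the RIG-I-like receptors, was at -0.15, -2.79, -0.38 and -1.17 (difference 1.86), and Zbp1, a sensor of Z-form nucleic acid, at 0.02, -3.11, 0.46 and -1.13 (difference 1.54). Tlr7, the endosomal receptor of single-stranded RNA, read -0.84, -1.42, -0.86 and 0.97, so it was higher on L2AKO LDL than on the other arrays. Dnase2a, the lysosomal DNase, was at 4.44, 4.44, 4.54 and 5.45 and likewise stood apart on that array only.

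The signalling genes upstream differed less. Of 17 receptors, kinases and factors measured, 1 was at least 1.5-fold higher and none lower, with a median of -0.08. That gene was Irf7, the factor that amplifies type I interferon production, at -1.62, -3.70, -1.65 and -2.34 (difference 1.39). Stat2 was at 3.84, 2.37, 3.89 and 2.98 (difference 0.56) and Irf9 at 4.27, 3.17, 4.30 and 3.75 (difference 0.55), both below 1.5-fold and both on the same side. The receptor genes Ifnar2 and Ifngr1 were each at -0.54, on the other side. The interferon genes Ifnb1, Ifna4 and Ifng were undetected on all 4 arrays, so no level of the ligands was measured.

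For antigen presentation, 3 of 16 measured genes were at least 1.5-fold higher and none lower (median 0.27), and these were the 3 immunoproteasome subunits. Psmb8 was at -0.87, -2.25, 1.13 and 0.64 (difference 0.89), Psmb9 at 0.29, -0.81, 1.95 and 1.67 (difference 0.82) and Psmb10 at 5.13, 4.56, 5.87 and 5.91 (difference 0.61). Psmb8 and Psmb9 were already higher in L2AKO without LDL. None of the 34 subunits of the constitutive proteasome reached 1.5-fold (median -0.03).

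The 36 higher members divided by which response carried them. In 11 the level was at least 1.5-fold lower with LDL in WT only, in 16 it was lower in both lines and further in WT, and in 3 neither description held. The remaining 6 were Oas1d, Tlr7, Iigp1, Dnase2a, Gbp9 and Slfn9. In these the level was 1.5-fold or more higher in L2AKO on the LDL array, while WT was not 1.5-fold lower. Slfn9 had 2 probes measured, and its difference ran from -0.18 to 0.865 over 11 settings, above 0 in 10 of them. The settings that changed only the filter gave its main value again. Without LDL, 26 of the 36 lay within 1.5-fold between the lines, with a median L2AKO minus WT of 0.16 on arrays of the same slide. With LDL that median was 1.71, taken across slides.

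The share of the WT decrease that L2AKO showed was set beside that of the sterol genes, which were measured on the same arrays. Of the interferon genes, 31 were at least 2-fold lower with LDL in WT, and 8 of these were so in L2AKO. The decrease was smaller in L2AKO for all 31, with a median of -2.02 in WT and -0.79 in L2AKO. The median share was 37.3%, between 7.19% and 89.8%. Selection by the WT response favours larger WT values, so the reverse was taken too. Of the 9 interferon genes at least 2-fold lower in L2AKO, 8 were so in WT, and the WT decrease was the smaller in 1 of 9, with medians of -1.14 in L2AKO and -2.61 in WT.

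For the sterol lists, 25 of 50 measured genes were at least 2-fold lower with LDL in WT, and 23 of these were so in L2AKO. The median share was 92.6%, between 55.5% and 131%, with a smaller decrease in L2AKO for 16 of 25. In reverse, 23 genes were at least 2-fold lower in L2AKO, all of them also in WT, with medians of -2.04 and -2.20. Over all genes measured, 119 were at least 2-fold lower in WT, 60 of them also in L2AKO, with a median share of 67.9%, and these include both sets. Under the other scalings, filters and background corrections the median share lay between 31.4% and 37.3% for the interferon lists and between 88.2% and 96.5% for the sterol lists.

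**Figure D2:**
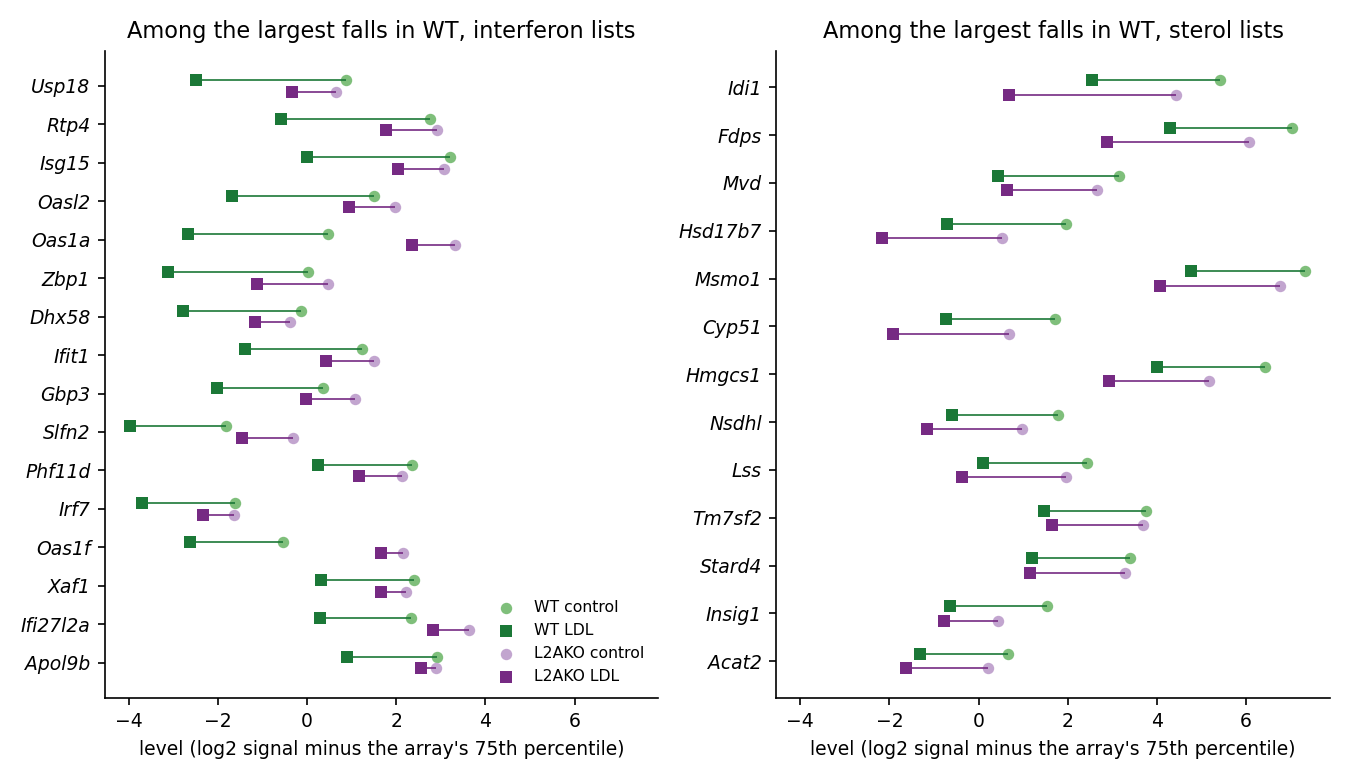
Level on each array (horizontal axis, log2 signal minus the array's 75th percentile) of the 16 interferon list genes lowered furthest by LDL in WT (left) and of 13 sterol list genes among those lowered furthest (right). Circles are controls and squares LDL, green is WT and purple L2AKO, each point is 1 array, and lines join the arrays of a line. On the left the purple lines are shorter than the green ones for each gene, as for Isg15 with -1.02 against -3.22. On the right most lines of both colours have similar lengths. There the purple line is shorter for Insig1 (-1.21 against -2.17) and Mvd (-2.03 against -2.71) and longer for Idi1 (-3.73 against -2.88).

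Sterol genes. Of 50 measured members of 5 lists, the difference was at least 1.5-fold higher for 4 and lower for 2, none reached 2-fold, and the median was 0.01. None of 12 genes from squalene to cholesterol reached 1.5-fold (median 0.04). Msmo1, a methylsterol monooxygenase, was at 7.31, 4.75, 6.76 and 4.07, and Lss, lanosterol synthase, at 2.44, 0.10, 1.95 and -0.37. Both lines lost about the same amount from unequal starting levels, with differences of -0.12 for Msmo1 and 0.02 for Lss.

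In the mevalonate arm, which leads to farnesyl diphosphate, 2 of 9 were higher and 1 lower (median 0.16). Mvd, mevalonate diphosphate decarboxylase, was at 3.14, 0.43, 2.66 and 0.63 (difference 0.69). Idi1, the isomerase that follows Mvd, went further down in L2AKO, at 5.42, 2.54, 4.42 and 0.69 (difference -0.85). The sterol sensor Insig1, which holds SREBP in the endoplasmic reticulum, was at 1.52, -0.65, 0.44 and -0.77 (difference 0.97), and LDL left it at nearly the same level in both lines. On the list of LXR targets and efflux genes, Pltp, which transfers phospholipids between lipoproteins, was at 3.32, 2.96, 2.73 and 3.27 (difference 0.91). Abca1, the exporter of cellular cholesterol, was at 0.41, 1.30, 2.27 and 2.49 (difference -0.66), so the increase seen in WT was small in L2AKO, where the level was higher throughout.

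Inflammatory genes. On the lists of acute phase, chemokine and NF-kappa-B target genes, 49 of 81 genes were measured, 4 were at least 1.5-fold higher and 5 lower, with a median of -0.11. All 9 that were at least 2-fold lower in WT were so in L2AKO, with a median share of 93.3%. In reverse, 16 were at least 2-fold lower in L2AKO and 9 of these in WT, where the decrease was smaller for 11 of 16, with a median share of 69.8%. Saa3, an acute phase apolipoprotein, was at 5.93, 1.54, 7.42 and 3.84 (difference 0.82), a large decrease in both lines. Il6 was at -1.29, -2.12, 0.03 and -1.86 (difference -1.06), and Tnfaip3, an inhibitor of NF-kappa-B signalling, at 3.79, 3.81, 3.77 and 2.87 (difference -0.93), where only L2AKO LDL was low. Nos2, the inducible nitric oxide synthase, was at -0.90, -1.40, -0.82 and -0.25 (difference 1.06). Cxcl10, an interferon-induced chemokine on the effector list, lay on the other side from most effectors, since it was not well above background in L2AKO LDL and its difference was -1.22 or less. None of 14 complement genes measured reached 1.5-fold.

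**Figure D3:**
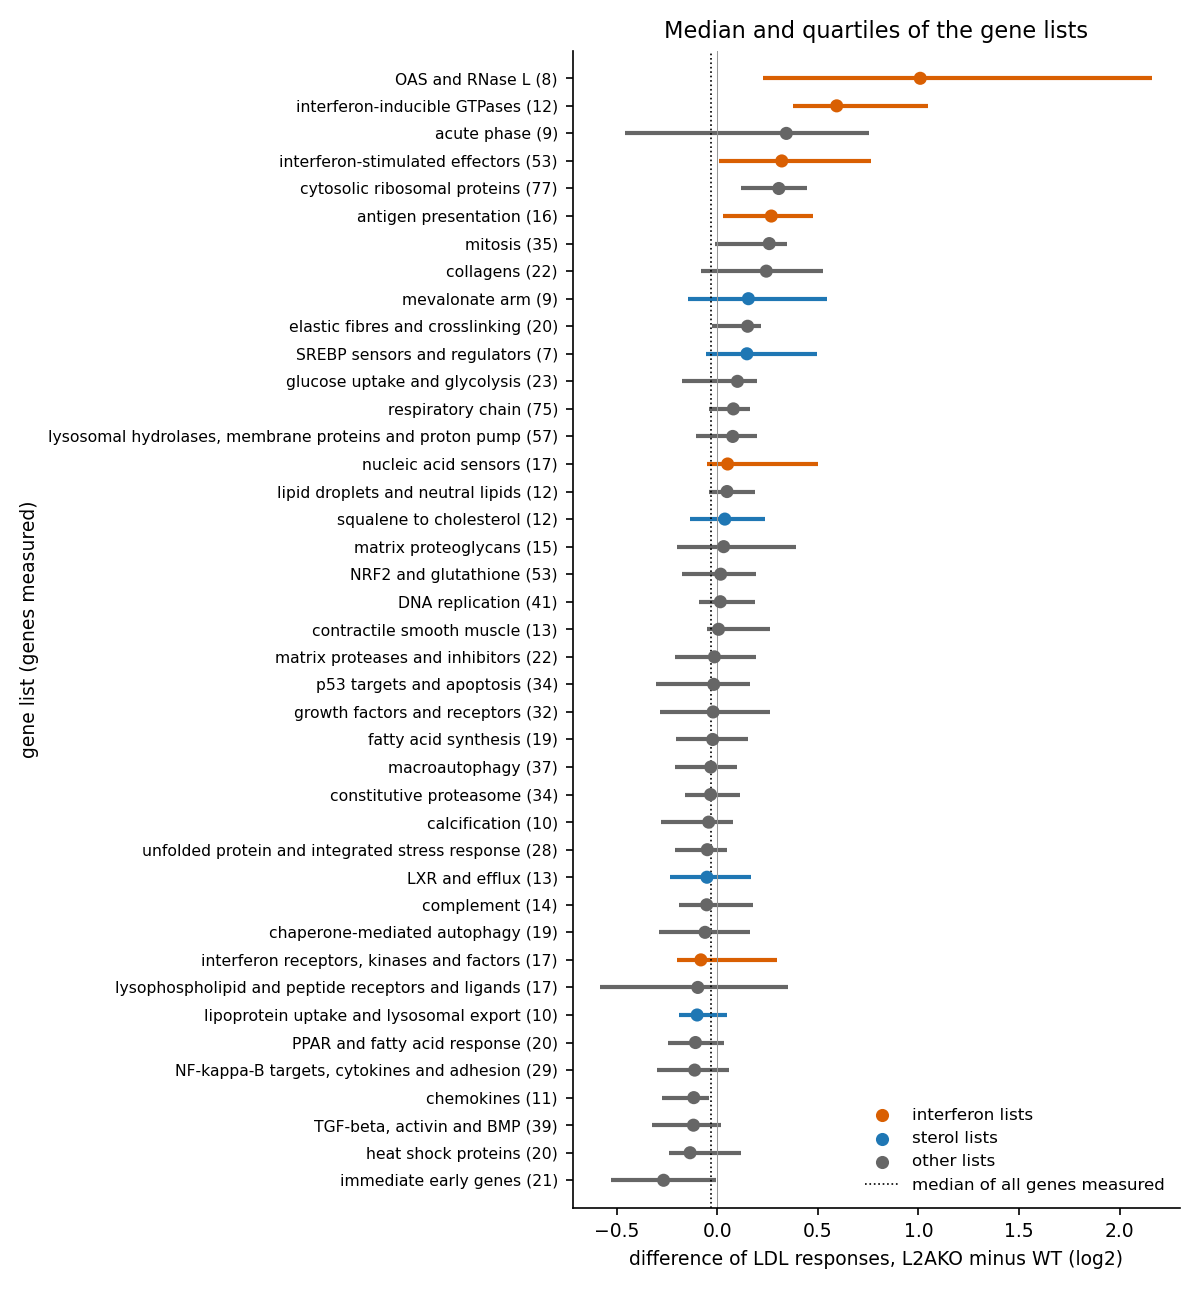
Median (point) and quartiles (bar) of the difference of LDL responses, L2AKO minus WT (horizontal axis, log2), for the 41 gene lists, with the number of genes measured in parentheses. Interferon lists are orange, sterol lists blue and others grey, and the dotted line is the median of all genes, -0.03. The lists of oligoadenylate synthetases (1.01) and GTPases (0.59) lie farthest to the right and immediate early genes (-0.27) farthest to the left.

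Other gene groups. Cytosolic ribosomal protein genes had a median of 0.31, with 11 of 77 at least 1.5-fold higher and none lower. Quantile normalisation brought the median to 0.00, normexp to -0.029 and the authors' deposited values to -0.029, so it was not above 0 in those 3 settings. Rps21 was at 5.36, 5.47, 5.74 and 7.30 (difference 1.46), and Rpl4 at 6.60, 6.52, 6.76 and 7.78 (difference 1.10), each high on L2AKO LDL alone. Genes of mitosis had a median of 0.26, above 0 in every setting tried, with 2 of 35 higher, among them the proliferation marker Mki67 at 3.49, 3.47, 0.13 and 0.71 (difference 0.61).

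Immediate early genes had the lowest median, -0.27, below 0 in every setting tried, with 5 of 21 at least 1.5-fold lower and 2 higher. Junb was at -3.75, -3.39, -2.96 and -4.15 (difference -1.54) and Egr2 at -1.05, -0.54, -1.44 and -1.81 (difference -0.88), while Fosb (0.89) and Zfp36 (0.91) lay on the other side. Of 39 genes of TGF-beta, activin and BMP signalling, 5 were lower and none higher (median -0.12). Ltbp2, which tethers to matrix microfibrils, was at 2.95, 2.50, 2.43 and 1.05 (difference -0.93), and the BMP antagonists Nog at -1.06, -1.34, -1.60 and -2.73 (-0.86) and Grem1 at 5.85, 5.97, 4.86 and 4.18 (-0.81). In Ltbp2, Nog and Grem1 L2AKO LDL was the lowest array.

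In the matrix, 4 of 22 collagens were higher and 1 lower (median 0.24). Col3a1, the chain of type III collagen, was at 0.76, -1.39, 6.91 and 7.04. Its difference of 2.27 came from the WT decrease, at levels far under those of L2AKO, which hardly moved. Meg3, a long noncoding RNA, behaved alike at 0.94, -0.41, 6.57 and 6.82, and its 2 probes gave 0.98 and 1.60. Mmp3, the protease stromelysin, was at 4.59, 4.71, 5.00 and 3.93 (difference -1.19) and was low on L2AKO LDL. None of 13 contractile smooth muscle genes, of 20 elastic fibre and crosslinking genes, of 28 genes of the unfolded protein response or of 37 macroautophagy genes reached 1.5-fold, with medians of 0.01, 0.15, -0.05 and -0.03. On the chaperone-mediated autophagy list 2 of 19 were higher and 1 lower (median -0.06), and Nfe2l2, the factor NRF2, was at 4.51, 4.60, 4.69 and 3.99 (difference -0.78). Gsta4, a glutathione transferase, was at -1.18, 0.61, 0.50 and 1.06 (difference -1.23), an increase in both lines that was larger in WT. Of 57 lysosomal genes 3 were higher and none lower (median 0.08), led by the hydrolase Idua at 4.59, 4.38, 4.36 and 5.30 (difference 1.15), but a second, detected probe of Idua gave -0.07.

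Markers of other cell types were read on the same arrays. Of 18 macrophage markers 7 were measured, with 1 higher and 1 lower (median -0.09), and Ptprc, Adgre1, Tyrobp and Mrc1 were undetected on all 4 arrays. The summed signal of the list, in units of the array's 75th percentile, was 262.2 and 243 in WT without and with LDL, and 117.1 and 123.1 in L2AKO. Lgals3, the brightest marker at 7.81, 7.71, 6.34 and 6.15, weighed most in that sum. Cd14 was also lower in L2AKO, while Cd68, Csf1r and Trem2 were higher there with and without LDL. Of 15 lymphocyte markers 5 were measured, with 2 higher, Cd4 (0.97) and Cd3e (0.60), and none lower (median 0.48). Lck, Nkg7 and Ptprcap were also detected on all 4 arrays, while Cd3g, Cd8a and Ms4a1 were not above background on any. The summed signal of the lymphocyte list was 3.82 to 5.82 over the arrays. Endothelial markers had 7 of 15 measured, 2 higher (median 0.40), and a summed signal of 15.97 to 20.44. Mesothelial and epithelial markers had 9 of 14 measured, 3 higher (median 0.36), with a summed signal of 68 and 62.23 in WT and 20.16 and 23.46 in L2AKO. The part of any such cells in the interferon result was not tested.

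Genes that differed on the L2AKO LDL array alone. Of the 174 genes at least 2-fold higher, in 111 only the L2AKO level was 1.5-fold or more higher with LDL, 38 were lower in WT only, 17 were lower in both, 4 moved in opposite directions and 4 reached 1.5-fold in neither. Of the 90 lower genes, 64 were lower in L2AKO only, 13 were higher in WT only, 7 moved in opposite directions, 3 were lower in both, 1 was higher in both and 2 reached 1.5-fold in neither. By a rule chosen after the data were seen, an array stood alone where it was at least 2-fold from each of the other 3 and those lay within 1.5-fold of each other. L2AKO LDL stood alone as the higher array for 52 genes and as the lower for 8. The counts were 7 and 3 for WT control, 1 and 5 for WT LDL, and 3 and 4 for L2AKO control. Of the 111 genes, 47 were of this kind.

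**Figure D4:**
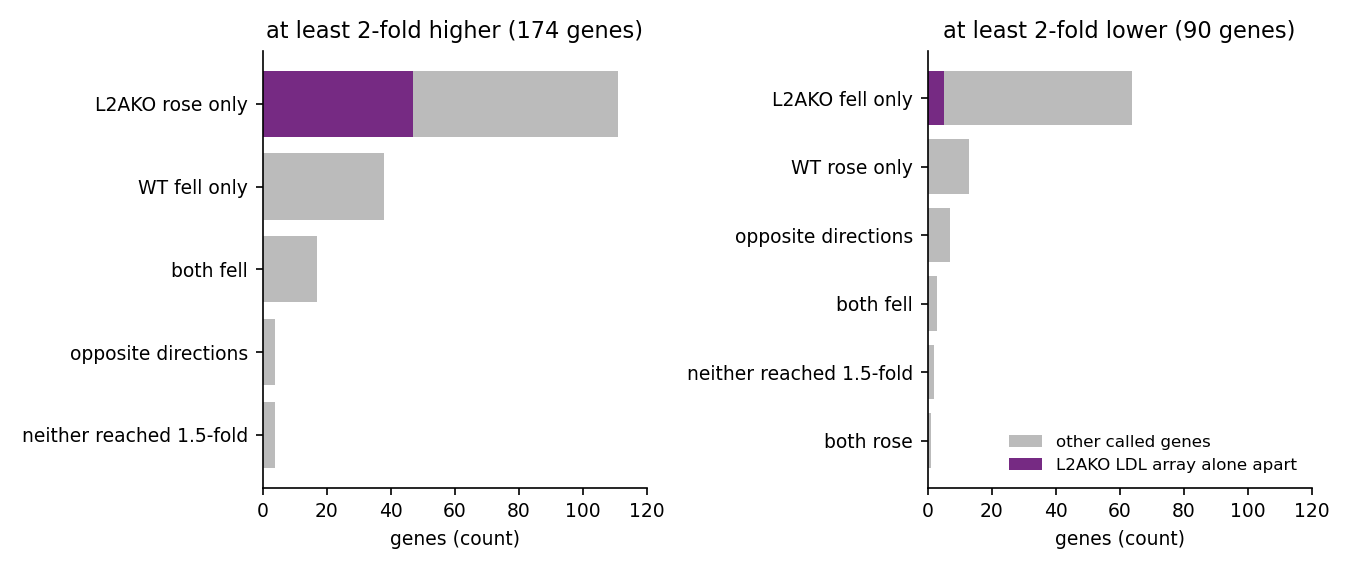
Number of genes (horizontal axis) at least 2-fold higher (left, 174) and at least 2-fold lower (right, 90) in the difference, by which LDL response reached 1.5-fold. The purple part counts genes in which the L2AKO LDL array alone stood apart, 47 of 111 on the left and 5 of 64 on the right.

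Iqsec3, an exchange factor of small GTPases known from inhibitory synapses, had the highest difference of all. It was at 2.87, 2.63, 1.86 and 5.44 (difference 3.83), so L2AKO LDL was above the other arrays by more than they spread. Olfr297, an odorant receptor, was at -2.85, -2.99, -3.48 and -1.15 (difference 2.48), and Tas2r113, a bitter taste receptor, at -1.39, -1.90, -1.74 and 0.01 (difference 2.27). Car4, a membrane carbonic anhydrase, was at 1.48, 1.37, 1.66 and 3.21, and Notum, which inactivates Wnt proteins, at 1.53, 1.40, 1.74 and 3.21. Car4, Notum and Rbp3, an eye retinoid carrier at 3.32, 3.21, 3.33 and 4.64, were picked after their values were seen. In Tas2r113, Car4, Notum and Rbp3 the other 3 arrays lay within 1.5-fold of each other.

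Families of odorant, vomeronasal and taste receptors, hair keratin-associated proteins and beta-defensins had 1463 genes on the array, of which 55 were measured. Of these, 6 were at least 2-fold higher, all with the increase in L2AKO only, and 5 were lower. That is 10.9% and 9.09%, against 1.39% and 0.72% of all genes measured. Their median was 0.01, so the family spread to both sides. The interferon element was found in 1 of 78 promoters of the 111 genes (1.28%), in 7 of 12 of the genes lower in both lines (58.3%) and in 4 of 30 of those lower in WT only (13.3%). Most of the genes lower in both lines were interferon list members, whose lists held the element in 38.1% of promoters. The 58.3% is therefore largely a share of those lists, and it was not taken without them. Interferon list members are also among the genes lower in WT only. Without them the genes lower in WT only held it in 1 of 25 promoters (4.0%), against 3.53% of all measured genes.

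Other probes of the same genes bore on these classes where they existed. For the genes higher in L2AKO only, 1 of 8 other probes was at least 1.5-fold higher. For genes lower in WT only it was 3 of 5, and for genes lower in L2AKO only 4 of 8 lay on the same side. No other probe existed for the 17 genes lower in both lines. Genes whose probes were all on the gene's side at 1.5-fold were Apol9a, Meg3, Fhit and Prpmp5 among the higher and Dclk1 and Anp32a among the lower.

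Lower genes were fewer and dimmer. Lpar4, a lysophosphatidic acid receptor, was at -3.63, -3.15, -1.97 and -4.68 (difference -3.19), and the intestinal peptide Cck at 3.34, 4.18, -2.88 and -3.72 (difference -1.68). Among brighter genes, Dcc, a netrin receptor, was at 4.63, 4.86, 4.69 and 3.63 (difference -1.30), and the placental factor Gcm1 at 4.06, 4.49, 4.36 and 3.58 (difference -1.20). Both were lowest on L2AKO LDL, but 2 other probes of Gcm1 gave -0.76 and 0.04, and the mean over its probes was -0.64, short of 2-fold. Dclk1, a microtubule-associated kinase, was at 3.77, 3.78, 2.70 and 1.62, and its 3 probes ran from -1.17 to -0.86. Anp32a, a nuclear acidic protein, was at 1.75, 1.97, 2.91 and 1.84, so the L2AKO control array was the high one there.

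**Figure D5:**
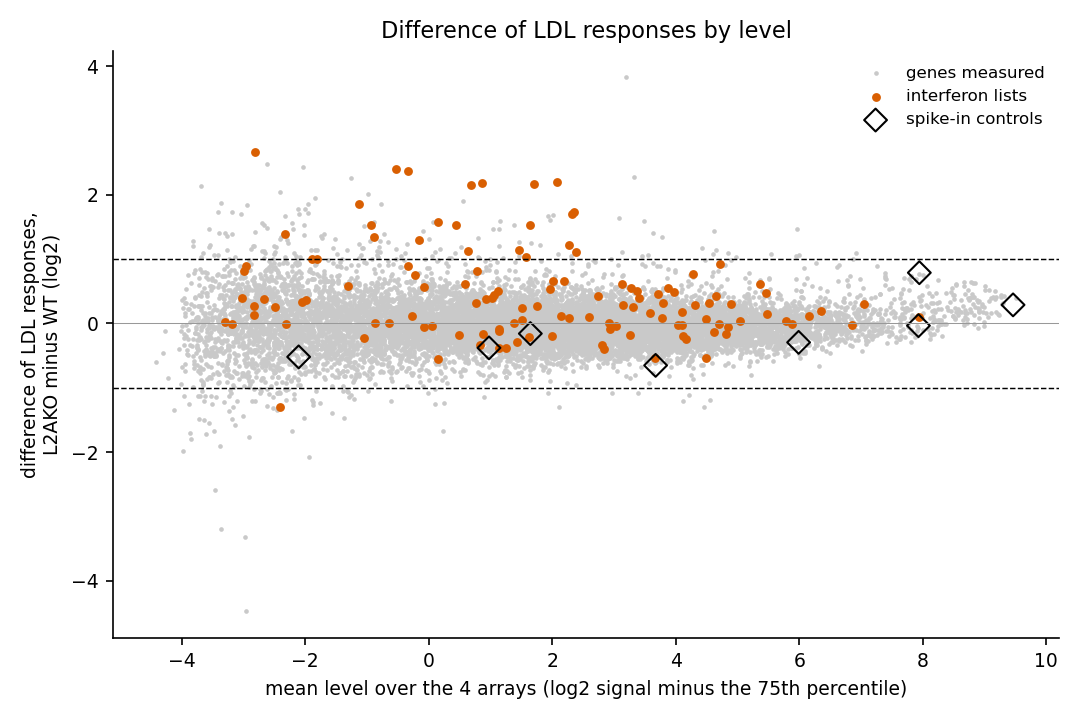
Difference of LDL responses, L2AKO minus WT (vertical axis, log2), against the mean level over the 4 arrays (horizontal axis, log2 signal minus the 75th percentile) for 12492 genes (grey), the interferon list genes (orange) and the 8 measured spike-in controls (diamonds). Dashed lines mark 2-fold. Grey points spread widest at low levels, and the diamonds lie between -0.65 and 0.79. Orange points above the upper line run from a mean level of -2.81 (Oas1d) to 2.39 (Irgm2). None of them lies among the brightest genes, those with a mean level of 3.68 or more.

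The spread depended on the level. In the dimmest 25% of genes the difference had an SD of 0.52, with 104 genes at least 2-fold higher and 76 lower, and in the brightest 25% an SD of 0.26, with 13 higher and 4 lower. Of the 174 higher and 90 lower genes, 75 and 13 also reached 2-fold on the same side after normexp correction. Among 7688 probes without a gene name, 296 were at least 2-fold higher (3.85%) and 184 lower (2.39%), and what they detect is not known here.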

How the data were processed

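Gene expression was measured on 4 single-colour Agilent mouse 8x60K arrays, 1 per group. The deposited scanner files hold a linear spot intensity made with Feature Extraction 10.7.3.1 and already background-subtracted, per the file headers. A value table deposited by the authors holds a linear signal and served as an alternative. RMA and oligo are named in the submitters' processing notes, and the sources used here do not state how the table was scaled.

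Control and outlier spots were left out, log2 values were averaged over the spots of a probe, and each array's 75th percentile was subtracted. Probes were named by RefSeq accession in a GRCm38.p6 gene table. Of 55679 probes 28330 matched 1 gene, and 27349 stayed unnamed. A gene took its brightest probe and was measured if that was well above background on all 4 arrays. The difference was (L2AKO LDL minus L2AKO control) minus (WT LDL minus WT control), called at 2-fold, with 1.5-fold for lists. Dim values gave bounds against the lowest value well above background.

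The 41 gene lists, 8 marker lists and the naming rule were chosen with earlier results of these data known. The rule named the 15 highest and 15 lowest genes also 2-fold after normexp, up to 10 per side with 2 or more probes on 1 side, the 4 largest of each list, all interferon and sterol members, Lamp2 and Hspa8. Genes named outside it were chosen after their values were seen, and some genes the rule took are not reported here.

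Alternatives were 4 scalings, normexp (offset 50) with quantile normalisation, the authors' values, 3 filters, and averaged or single probes. The difference and the 2-fold call were tested on simulated gene levels with noise of the size of repeated spots. The steps before them and a difference between slides were not simulated. R 4.3.3, limma 3.58.1, Python 3.11.15, pandas 2.3.3 and numpy 2.4.6 were used.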

Additional observations from a re-analysis of the deposited data

Results flagged for a closer look

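In 11 genes the LDL responses of WT and L2AKO ran in opposite directions, each by at least 1.5-fold. With 1 array per group, no such difference was tested. On the lower side, the difference of responses was -4.47 for 9130019O22Rik, -3.32 for Krtap1-4, -2.59 for Celsr2, -1.72 for Rasip1, -1.68 for Rspo2, -1.68 for Cck and -1.47 for Mroh1. On the higher side it was 1.31 for Stab2, 1.51 for Pclo, 1.70 for Prb1 and 2.01 for Serpina3h. Several of the largest values came from dim genes. On L2AKO LDL, 9130019O22Rik, Krtap1-4, Celsr2 and Rasip1 stood at -4.28, -4.31, -4.74 and -4.59. The faintest signal counted as detected there was -5.08. After normexp the difference was smaller, at -1.83 for 9130019O22Rik and -1.40 for Krtap1-4. Krtap1-4, a hair keratin-associated gene, changed by 2.07 with LDL in WT and by -1.25 in L2AKO. Serpina3h, a serine protease inhibitor, changed by -0.82 in WT and 1.19 in L2AKO. Cck, with levels of 3.34 and 4.18 in WT, was dim in L2AKO at -2.88 and -3.72.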

How the results depend on the processing

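The counts of genes at least 2-fold higher and lower in the difference were 174 and 90. They were 80 and 14 after normexp with quantile normalisation, 98 and 18 in the authors' deposited values, 70 and 14 without the dimmest 25%, 723 and 635 when detection on any 1 array was enough, 1073 and 1502 without a filter, and 507 and 305 with every probe counted by itself. The filters and the probe count changed how many features were tested, and for normexp and the deposited values the cause was not tested. Of the 174 and 90 genes, 93 and 18 were called in the deposited values and 169 and 76 after quantile normalisation. With scaling to array medians, the median of all genes shifted by 0.11, the count of lower genes was 63, and the interferon-stimulated effectors had a median of 0.43 in place of 0.32. Without genes in which the L2AKO LDL array stood alone, a choice made after the data were seen, the counts were 127 and 85. The median of ribosomal protein genes reversed to -0.029 after normexp and to -0.029 in the deposited values. The median of acute phase genes (0.34) reversed to -0.053 when detection on any 1 array was enough and to -0.46 without a filter. The endothelial and lymphocyte marker medians reversed to -0.60 and -0.22 without a filter. Among comparisons of the named genes with their value in another setting, 2057 of 2625 moved by less than the spread of repeated spots, 568 by more, and 0 called genes changed sign. The 2057 include comparisons that could not move. A filter left the value of a named gene as it was, and averaging over probes did so for genes with 1 probe. The count therefore overstates how stable the values were. No replicate could be left out, since each group had 1 array. No paired analysis was possible because each group was 1 pooled array and the labels give no replicate numbers.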
